A study of Mus musculus with 4 samples.

Results

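The genes described here are 7 of the 41543 gene symbols counted in 4 RNA libraries of E14TG2a, a line of mouse embryonic stem (ES) cells. They are 3 copies of RNA helicase genes, D1Pas1, Eif4a3l1 and Eif4a3l2, with the genes they resemble, Ddx3x and Eif4a3, and the related Eif4a1 and Eif4a2. The copies were chosen by their CPM (counts scaled to library size) and fold change, which stood higher in KAT6A knockout cells than in control cells, so that difference is given as a description and is not tested. The other 4 genes were added by kinship, and their rows of a test over all genes are given. The 2 KAT6A KO libraries came from cells edited with CRISPR/Cas9 to remove KAT6A, a histone acetyltransferase, and the 2 Control libraries from cells with the genotype label Control. All cells grew with serum and LIF on gelatin. The labels do not give the edited position, the number of clones or whether replicates were separate cultures, so each p-value measures no more than the spread among the 4 libraries, which may be technical.

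DEAD-box proteins are ATP-driven enzymes that unwind or clamp RNA, and they are named after a run of amino acids at their ATPase site. DDX3X helps ribosomes start on mRNAs with structured leaders, EIF4A1 and EIF4A2 are the helicase of the cap-binding complex eIF4F, and EIF4A3 is the clamp of the exon junction complex, which marks spliced exon joints and takes part in nonsense-mediated decay. A retrocopy arises when a processed mRNA is reverse transcribed and inserted elsewhere in the genome, which leaves the introns and the parent's promoter behind. D1Pas1, also called PL10, is an autosomal retrocopy of the X-linked Ddx3x known for expression in male meiotic germ cells.

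D1Pas1 lies on chromosome 1 (186967416 to 186970627, plus strand, GRCm38.p6, RefSeq) and has 1 exon of 3212 bases, whereas the longest coding transcript of Ddx3x, on chromosome X (13280496 to 13293988, plus strand), has 17 exons and 4692 bases in GENCODE M21. Eif4a3l1 lies on chromosome 6 (136327539 to 136329983, plus strand) with exons of 110 and 1463 bases, and is named Gm8994 in GENCODE M21. Eif4a3l2 lies on the same chromosome (116550171 to 116552602, plus strand). RefSeq lists it as a pseudogene and GENCODE M21 as a protein-coding gene with 1 exon, Gm5580. Their parent Eif4a3 is on chromosome 11 (119288363 to 119300043, minus strand) with 12 exons. Eif4a1 is also on chromosome 11 (69666936 to 69672423, minus strand), and Eif4a2 is on chromosome 16 (23107468 to 23114132, plus strand), with 11 exons each.

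All 3 copies keep an open reading frame close to the full length of the parent's. The frame of D1Pas1 encodes 660 residues against 662 in Ddx3x, with 87.4% of 1977 aligned bases and 94.7% of 659 aligned residues identical. The frames of Eif4a3l1 and Eif4a3l2 encode 411 residues, as does that of Eif4a3. Eif4a3l1 matched Eif4a3 at 96.2% of bases and 96.1% of residues, Eif4a3l2 matched Eif4a3 at 96.8% of bases and 97.1% of residues, and the 2 copies matched each other at 98.5% of bases and 97.6% of residues. Eif4a1 and Eif4a2 were 90.1% identical to each other in residues, and 66.9% and 67.5% identical to Eif4a3. The 60 coding bases around the codons that give the family its name are shown because they let copy and parent be told apart base by base. Capitals mark bases of a copy that differ from its parent, in the strand of the mRNA from GENCODE M21.
D1Pas1: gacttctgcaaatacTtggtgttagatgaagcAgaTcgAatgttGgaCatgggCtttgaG
Ddx3x: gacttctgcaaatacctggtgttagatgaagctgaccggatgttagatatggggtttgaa
Eif4a3l1: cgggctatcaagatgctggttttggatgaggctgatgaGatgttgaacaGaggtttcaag
Eif4a3l2: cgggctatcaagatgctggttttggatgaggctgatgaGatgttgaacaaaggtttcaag
Eif4a3: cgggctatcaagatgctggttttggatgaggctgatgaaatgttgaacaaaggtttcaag
In this stretch D1Pas1 differed from Ddx3x at 8 bases and 0 residues. Eif4a3l1 differed from Eif4a3 at 2 bases and 1 residue, and Eif4a3l2 at 1 base and 0 residues.

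Sequence identity bears on how far the counts of a copy can be assigned to it, and how the authors treated reads that map to several places is not stated in the labels. D1Pas1 shared 0 of its 3163 windows of 50 bases, and 0 of its 3113 windows of 100 bases, with any other gene annotated in GENCODE M21. Eif4a3l1 shared 48.9% of its 50-base windows with another gene, 11.6% with Eif4a3 and 44.2% with Eif4a3l2. At 100 bases these shares were 29.9%, 1.36% and 23.5%. Eif4a3l2 shared 63.4% of its 50-base windows, 16.6% with Eif4a3 and 51.3% with Eif4a3l1, and 31.6%, 4.12% and 27.5% of its 100-base windows. The counts of the Eif4a3 copies are therefore less certain than those of D1Pas1. Each of these copies shared more windows with the other than with Eif4a3, but Eif4a3 had far more counts. It had 7321 to 11573 counts per library, against 17 to 309 for the copies. Of its own 50-base windows, 12.1% were shared with Eif4a3l1 and 14.9% with Eif4a3l2. How many reads of Eif4a3 were counted for the copies was not tested. Among the parents and related genes, Ddx3x shared 3.25% of its 50-base windows with other genes, Eif4a2 14.1%, Eif4a3 24.4% and Eif4a1 65.3%.

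D1Pas1 was the most abundant copy and stood higher in both KO libraries. It had 2174 and 1409 counts in KO replicates 1 and 2, and 443 and 473 counts in control replicates 1 and 2. In CPM, on library sizes scaled by TMM, this was 71.4 and 51.3 CPM in the KO libraries, against 12.5 and 12.8 CPM in the controls. The groups did not overlap, and the KO libraries lay further apart than the controls. The means were 61.3 ± 14.3 CPM in KO cells and 12.6 ± 0.215 CPM in control cells (SD, n = 2 each), with a log2 fold change of 2.28 ± 0.17 (SE), or 4.86-fold. KO replicate 1 stood at 5.66 times the control mean and KO replicate 2 at 4.06 times.

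Eif4a3l1 had 309 and 228 counts in the KO libraries, and 79 and 78 in the controls. These came to 10.2 and 8.29 CPM in KO cells, and 2.22 and 2.11 CPM in control cells, again without overlap and with KO replicate 1 the higher. The means were 9.22 ± 1.31 CPM in KO cells and 2.16 ± 0.0828 CPM in control cells (SD, n = 2 each), a log2 fold change of 2.09 ± 0.19 (SE). Eif4a3l2 was the least abundant, with 59 and 70 counts in the KO libraries, and 17 and 24 in the controls. It had 1.94 and 2.55 CPM in KO cells, and 0.478 and 0.648 CPM in control cells, and here KO replicate 2 was the higher. The means were 2.24 ± 0.43 CPM in KO cells and 0.563 ± 0.12 CPM in control cells (SD, n = 2 each), with a log2 fold change of 1.98 ± 0.30 (SE). Over all 16112 tested genes, 31.5% had both KO libraries above both controls, and 5.76% were called higher in KO by the edgeR test; since the copies were chosen for this difference, nothing is read from their 3 of 3. All 3 passed the filter on low counts in the control libraries as well as in the KO libraries.

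The copies ranked 27 (D1Pas1), 48 (Eif4a3l1) and 54 (Eif4a3l2) from the highest log2 fold change among tested genes. In the authors' deposited table, D1Pas1 had a log2 fold change of 2.07 (SE 0.17), Eif4a3l1 of 1.69 (SE 0.22) and Eif4a3l2 of 1.09 (SE 0.28). The log2 ratio of the mean normalized counts that the authors deposited was 2.28 for D1Pas1, 2.09 for Eif4a3l1 and 2.00 for Eif4a3l2, so the table's value lay below this ratio for each copy, and most for the copy with the fewest counts. The count ratio of Eif4a3l1 to Eif4a3l2 was 5.24 and 3.26 in the KO libraries, and 4.65 and 3.25 in the controls, and the ranges of the groups overlapped.

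**Figure D1:**
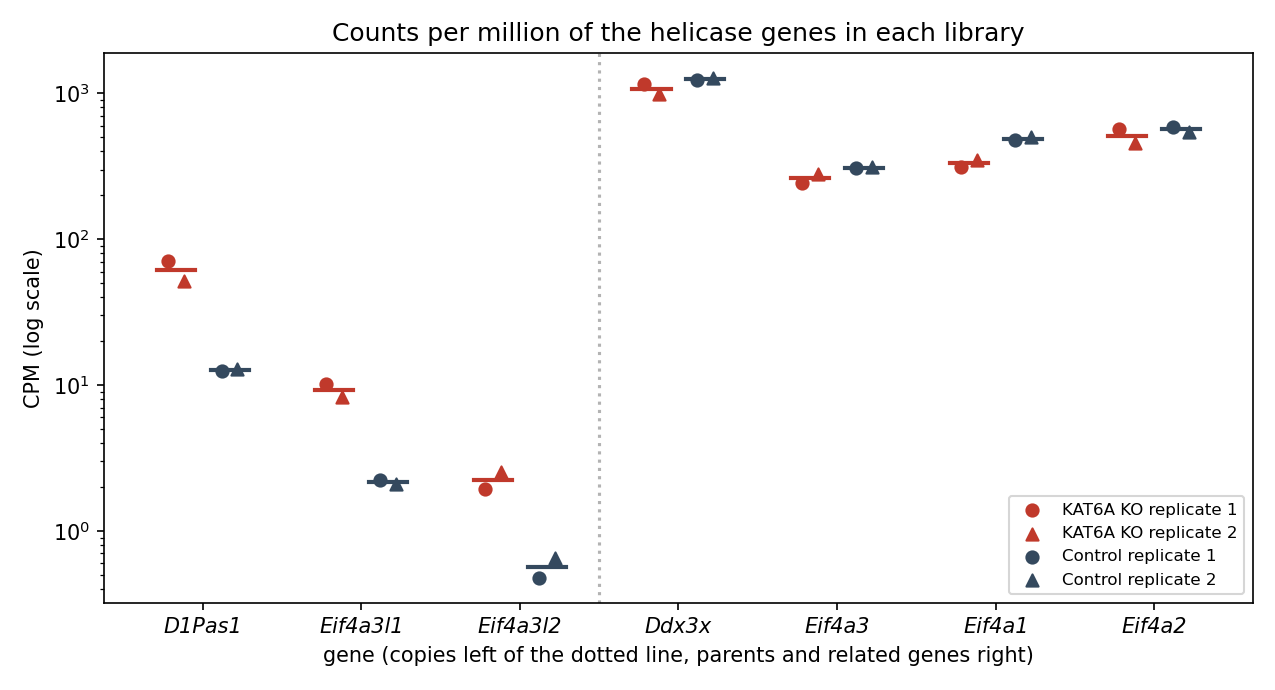
CPM of the 7 helicase genes in each library on a log axis, KAT6A KO in red left of Control in dark blue, with circles for replicate 1, triangles for replicate 2 and a bar at the group mean. For the 3 copies both KO points lie above both Control points (D1Pas1 at 71.4 and 51.3 against 12.5 and 12.8 CPM), while for the 4 parents and related genes the KO mean lies below the Control mean.

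Each copy remained a small part of the counts it shares with its parent, also in KO cells. D1Pas1 held 5.83% of the summed D1Pas1 and Ddx3x counts in KO replicate 1 (exact 95% binomial interval 5.60% to 6.08%) and 4.93% in KO replicate 2 (4.68% to 5.18%). In control replicates 1 and 2 it held 0.995% (0.905% to 1.09%) and 0.992% (0.905% to 1.08%). The mean shares were 5.38% in KO cells and 0.994% in control cells. The intervals cover counting error only, and since the copies were chosen for their counts in KO cells, the shares are a description and not a test. Eif4a3l1 held 4.05% and 2.86% of its sum with Eif4a3 in the KO libraries, and 0.718% and 0.669% in the controls. Eif4a3l2 held 0.799% and 0.894% in the KO libraries, and 0.155% and 0.207% in the controls.

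Since the transcripts differ in length, levels of different genes were compared per kilobase. On the scale of CPM per kilobase, D1Pas1 had a mean level of 19.1 ± 4.44 in KO cells and 3.93 ± 0.0671 in control cells, while Ddx3x had 228 ± 24.7 in KO cells and 268 ± 5.3 in control cells (SD, n = 2 each). For every 100 units of Ddx3x per kilobase there were 9.05 and 7.57 units of D1Pas1 in the KO libraries, and 1.47 and 1.46 in the controls. The mean levels of Eif4a3l1 were 5.86 ± 0.836 in KO cells and 1.38 ± 0.0526 in control cells, and those of Eif4a3l2 were 1.65 ± 0.316 in KO cells and 0.413 ± 0.088 in control cells, in CPM per kilobase (SD, n = 2 each). Eif4a3 had 173 ± 19.5 CPM per kilobase in KO cells and 205 ± 2.44 in control cells. In control cells the order from the highest was Eif4a1, Ddx3x, Eif4a2, Eif4a3, D1Pas1, Eif4a3l1 and Eif4a3l2. The share of 50-base windows found in other genes was highest for Eif4a1 (65.3%) and Eif4a3l2 (63.4%). How the treatment of such reads bears on this order was not tested. Among Eif4a1 (276 ± 7.76), Ddx3x and Eif4a2 (258 ± 14.1), neighbours in this order differed by less than the sum of their SDs, and the other neighbours differed by more. In KO cells Eif4a1 had 186 ± 14 and Eif4a2 232 ± 35.5 CPM per kilobase, and these 4 genes again stood above the copies.

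**Figure D2:**
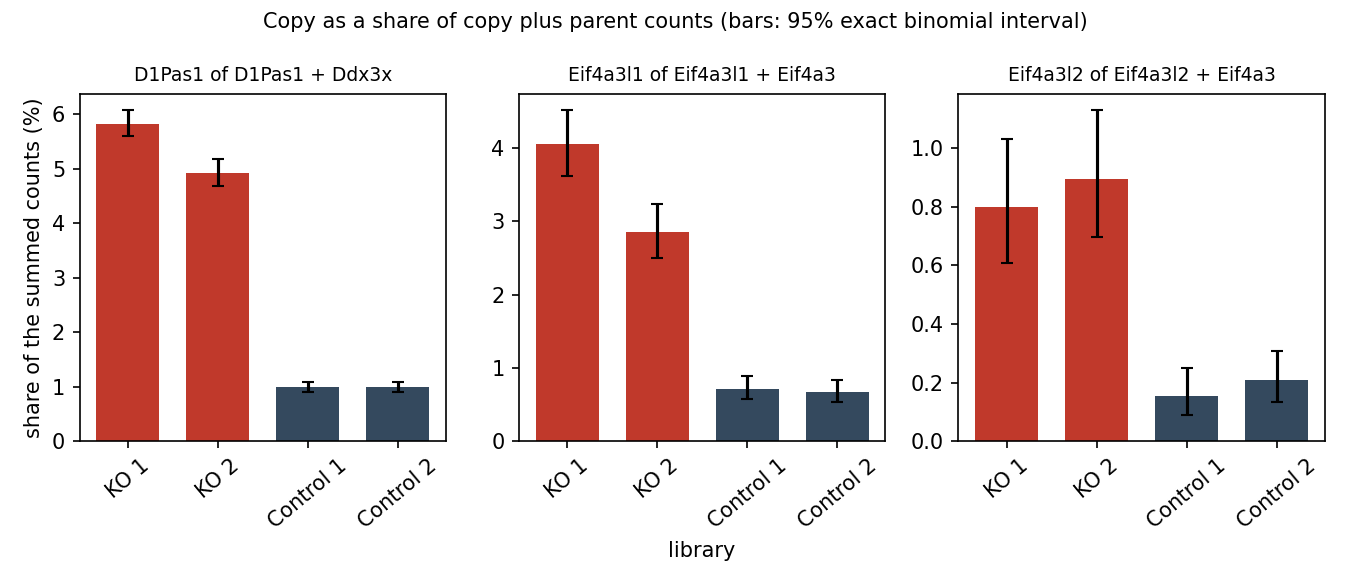
Share in percent of each copy in the summed counts of copy and parent, 1 bar per library, KAT6A KO in red left of Control in dark blue, with 95% exact binomial intervals that cover counting error only; each panel has its own vertical scale. D1Pas1 reaches 5.83% and 4.93% in the KO libraries, against 0.995% and 0.992% in the controls.

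None of the parents and related genes was higher on average in KO cells, and Eif4a1, the main helicase of the cap-binding complex, was the 1 of these 4 that passed the test. Eif4a1 had 313 and 348 CPM in the KO libraries, and 479.5 and 499 CPM in the controls, without overlap. Its means were 330.3 ± 24.9 CPM in KO cells and 489 ± 13.8 CPM in control cells (SD, n = 2 each). It fell by 0.57 ± 0.09 (SE) on the log2 scale, 1.48-fold, with an edgeR adjusted p of 0.015, and 8.57% of all tested genes were called lower. Eif4a1 is on chromosome 11, where the median log2 fold change of 1332 tested genes was -0.45, against 0.01 over all tested genes, and where 40.3% were called lower. What this chromosome-wide shift contributes to the Eif4a1 value was not tested. Without control replicate 2 the Eif4a1 value was -0.54 and no longer passed the test (adjusted p = 0.091), within a range of 2.6e-40 to 0.091 over the alternatives. The authors' deposited table gave Eif4a1 a log2 fold change of -0.54 with an adjusted p of 0.00014.

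Ddx3x, the parent of D1Pas1, had 1153 and 989 CPM in the KO libraries, and 1239.8 and 1275 CPM in the controls. Both KO libraries lay below both controls, as for 32.8% of all tested genes. The log2 fold change of -0.23 ± 0.10 (SE) did not pass the test (edgeR adjusted p = 0.16). Genes whose transcript GC content was within 2 percentage points of that of Ddx3x (41.0%) had a median log2 fold change of -0.22, tested genes of the X chromosome had -0.17, while an offset for GC content turned the Ddx3x value to 0.03 (adjusted p = 0.80). Without KO replicate 1 the value was -0.35 (adjusted p = 7.9e-14) and without KO replicate 2 it was -0.13 (adjusted p = 0.0081), where the lone KO library is assumed to vary as little as the controls; over all alternatives the adjusted p ran from 7.9e-14 to 0.82. The Y-linked homolog Ddx3y had 116 and 101 CPM in the KO libraries, and 125 and 129 CPM in the controls, with the same log2 fold change of -0.23 (edgeR adjusted p = 0.15), which the GC-content offset turned to 0.24. Ddx3y passed the test without KO replicate 1 (-0.34) and without KO replicate 2 (-0.14).

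Eif4a3, the parent of the other copies, had 241 and 282 CPM in the KO libraries, and 307 and 312 CPM in the controls, again without overlap. Its log2 fold change of -0.25 ± 0.10 (SE) did not pass the test (edgeR adjusted p = 0.14). It is a chromosome 11 gene of higher GC content (54.1%), and genes of like GC content had a median of 0.12; with a GC-content offset Eif4a3 stood at -0.34 and passed (adjusted p = 0.038). It also passed without KO replicate 1 (-0.14, adjusted p = 0.013) and without KO replicate 2 (-0.37, adjusted p = 1.1e-12), in a range of 1.1e-12 to 0.62 over the alternatives. Eif4a2, which is interchangeable with Eif4a1 in eIF4F in vitro, had 568 and 457 CPM in the KO libraries, and 591 and 547 CPM in the controls, and the groups overlapped. Its log2 fold change was -0.15 ± 0.12 (SE, edgeR adjusted p = 0.42). The GC-content offset turned it to 0.03 (adjusted p = 0.83). Without KO replicate 1 it was -0.32 and passed (adjusted p = 1e-10), and over the alternatives its adjusted p ran from 1e-10 to 0.95.

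When copy and parent were counted as 1 gene, the sum followed the parent by construction, since the parents hold most of the counts. D1Pas1 and Ddx3x together had 1225 and 1041 CPM in the KO libraries, and 1252 and 1288 CPM in the controls, a log2 fold change of -0.16 ± 0.10 (SE, edgeR adjusted p = 0.30). Eif4a3 with both of its copies had 253 and 293 CPM in the KO libraries, and 309.9 and 315 CPM in the controls, a log2 fold change of -0.20 ± 0.10 (SE, edgeR adjusted p = 0.21). Counted together, the Eif4a3 copies had 12.1 and 10.8 CPM in the KO libraries, and 2.70 and 2.75 CPM in the controls, a log2 fold change of 2.07 ± 0.16 (SE). This value does not depend on how reads were split between these copies, but may still depend on how reads were split with Eif4a3.

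The promoter windows of copies and parents are shown because the series concerns KAT6A at unmethylated CpG islands and because the copies stood higher in KO cells while their parents did not. Each window runs from 250 bases before to 50 bases after an annotated RefSeq start, on GRCm38.p6 in the gene's strand, and 6 of the 7 genes had one, the exception being Eif4a3l2. Capitals mark CpG dinucleotides in the D1Pas1 window (chr1:186967166-186967465), the Ddx3x window (chrX:13280772-13281071) and the Eif4a3 window (chr11:119299994-119300293). In the Eif4a3l1 window (chr6:136327289-136327588) capitals mark the motif matches described below.
D1Pas1: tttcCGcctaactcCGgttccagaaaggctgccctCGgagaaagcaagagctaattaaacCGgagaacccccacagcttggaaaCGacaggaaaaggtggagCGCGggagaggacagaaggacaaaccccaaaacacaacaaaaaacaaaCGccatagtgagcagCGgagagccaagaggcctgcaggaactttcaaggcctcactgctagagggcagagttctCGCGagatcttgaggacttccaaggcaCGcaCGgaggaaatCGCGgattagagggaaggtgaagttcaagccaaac
Ddx3x: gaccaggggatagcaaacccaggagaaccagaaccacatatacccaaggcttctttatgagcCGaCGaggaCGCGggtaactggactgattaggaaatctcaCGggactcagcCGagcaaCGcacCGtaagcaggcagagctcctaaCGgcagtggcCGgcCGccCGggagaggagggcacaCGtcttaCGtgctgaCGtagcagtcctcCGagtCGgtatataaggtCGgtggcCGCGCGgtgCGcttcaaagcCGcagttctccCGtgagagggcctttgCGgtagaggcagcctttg
Eif4a3l1: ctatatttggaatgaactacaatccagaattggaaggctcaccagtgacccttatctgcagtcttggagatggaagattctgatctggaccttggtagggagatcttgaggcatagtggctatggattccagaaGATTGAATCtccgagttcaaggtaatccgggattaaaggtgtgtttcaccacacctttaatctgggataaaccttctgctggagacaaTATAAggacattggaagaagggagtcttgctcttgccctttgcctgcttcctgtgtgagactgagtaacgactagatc
Eif4a3: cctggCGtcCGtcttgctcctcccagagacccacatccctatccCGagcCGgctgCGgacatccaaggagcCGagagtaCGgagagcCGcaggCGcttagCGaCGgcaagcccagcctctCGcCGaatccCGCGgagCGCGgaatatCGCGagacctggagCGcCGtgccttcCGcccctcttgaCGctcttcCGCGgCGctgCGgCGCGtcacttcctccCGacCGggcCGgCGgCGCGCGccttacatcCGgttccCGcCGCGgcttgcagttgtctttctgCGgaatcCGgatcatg
The D1Pas1 window held 15 CpGs, and 34.6% of the 32851 RefSeq windows of mouse genes held as many or more. The Eif4a3l1 window held 3, which 76.7% of windows matched or exceeded, and the median of all windows was 7. The parents' windows held 25 CpGs at Ddx3x (18.4% of windows held as many or more) and 42 at Eif4a3 (3.03%). GC content was 53.3% at D1Pas1 and 45.0% at Eif4a3l1, against 60.0% at Ddx3x and 68.7% at Eif4a3. The related genes Eif4a1 and Eif4a2 held 23 and 36 CpGs.

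3 motifs were searched on both strands, with no overlap between matches in these windows. TATAA, the core of the TATA box, was found in 24.9% of all windows, among them Eif4a3l1, where the match starts 28 bases before the annotated start, and Ddx3x, where it starts 30 bases before. GATTNAATC, the core of the site of DUX, a transcription factor of the 2-cell embryo, was found in 0.268% of all windows (88 of 32851) and, among the 6, only in that of Eif4a3l1, 116 bases before the start. TGCACAC, a sequence to which ZSCAN4 binds, was found in 4.40% of all windows and in none of the 6. A match is a description of the letters and not of binding.

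**Figure D3:**
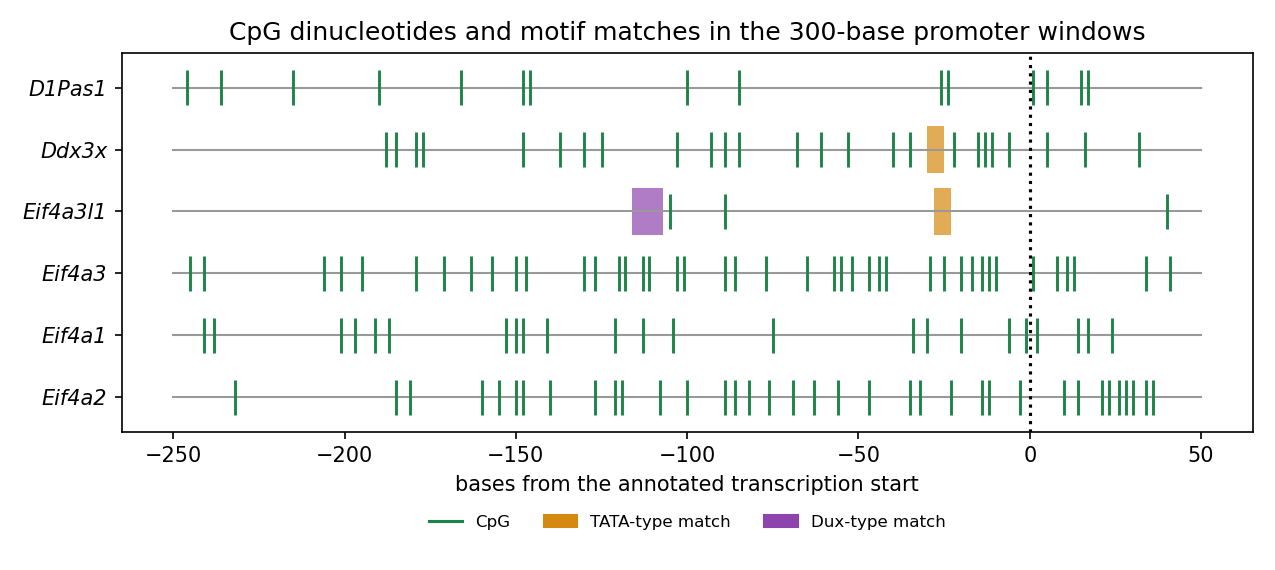
CpG dinucleotides (green lines) and matches to TATAA (orange) and to the DUX-type motif (purple) in the promoter windows of 6 helicase genes, plotted in bases from the annotated start (dotted line). Eif4a3l1 has 3 CpGs and both motif types, D1Pas1 has 15 CpGs and neither, and the windows of parents and related genes hold 23 to 42 CpGs.

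RefSeq annotates 12 genes within 50 kb of the copies, of which 7 were in the count table and the others were not analysed here. Of these 7, 0 passed the filter. The highest count of any of them in any library was 10, for Spata17, which lies 39.0 kb from D1Pas1 and had 1 and 1 counts in the KO libraries, and 10 and 8 in the controls. The nearest to Eif4a3l2 was the olfactory receptor gene Olfr214 at 3.83 kb, with 1 and 0 counts in the KO libraries and 0 in both controls. No neighbour in the table overlapped a copy.

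The genes whose pattern over the 4 libraries was most like that of each copy were found by the Euclidean distance between log2 CPM values centred on each gene's mean, among tested genes averaging 1 CPM or more. For D1Pas1 these were the pseudogene Zscan4-ps1 (distance 0.147), Gm5039 (0.215) and Gm21761 (0.219). Zscan4-ps1 had 5.29 and 3.60 CPM in the KO libraries, and 0.957 and 0.864 CPM in the controls. For Eif4a3l1 they were the cadherin gene Cdh22 (0.083), Gm21761 (0.112) and Zscan4-ps1 (0.231). Gm21761 and Zscan4-ps1 stood on both lists. For Eif4a3l2 they were Flywch2 (0.370), the prostaglandin D2 synthase gene Ptgds (0.384) and the stathmin gene Stmn3 (0.397). Flywch2 had 6.51 and 8.48 CPM in the KO libraries, and 2.28 and 2.86 CPM in the controls, with replicate 2 above replicate 1 in both groups as in Eif4a3l2. From D1Pas1, Eif4a3l1 ranked 8 at a distance of 0.255 and Eif4a3l2 ranked 37 at 0.758. The distance uses the same 4 values by which the copies were chosen, so the nearest genes were bound to stand higher in KO cells too. The likeness rests on 4 libraries and is a description.

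Markers of 2-cell-like cells, the few cells in ES cultures that resemble the 2-cell embryo, moved in the same direction as the copies. The 29 list members in the count table summed to 70.0 and 53.8 CPM in the KO libraries, and to 20.7 and 21.2 CPM in the controls. Of the 22 that passed the filter 16 were called higher, beside the 5.76% of all tested genes, and 0 lower by edgeR, also at an unadjusted p under 0.05, by DESeq2 and by limma-voom. Of the 22, 5 passed the filter only through the KO libraries, which favours a call, and 2 of the 16 called are among them. DESeq2 called 14 higher and limma-voom 15. Many of the 22 are near-identical family members whose reads could have been split. Usp17le, a deubiquitinase gene of a multicopy family, had 9.04 and 8.18 CPM in the KO libraries, and 2.53 and 2.51 CPM in the controls (log2 fold change 1.77 ± 0.17 SE, edgeR adjusted p = 0.0065). Zscan4c, a gene of telomere maintenance in ES cells, had 4.04 and 4.07 CPM in the KO libraries, and 0.985 and 0.702 CPM in the controls (log2 fold change 2.26 ± 0.25 SE, edgeR adjusted p = 0.0085). Tdpoz2, Tdpoz5 and BC061212 had no counts in any library. More cells of a state and more RNA per cell cannot be told apart in bulk libraries, and the part of such cells in the counts of the copies was not tested.

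Since D1Pas1 is known from the male germ line, germ cell markers were read beside it. Their 18 members summed to 256 and 203 CPM in the KO libraries, and to 284 and 266 CPM in the controls. Of 13 tested, 3 fell and 0 rose by edgeR, beside 8.57% lower and 5.76% higher over all tested genes. At an unadjusted p under 0.05, 4 were lower and 2 higher, and DESeq2 and limma-voom each called 4 lower and 0 higher. The median log2 fold change was -0.15. With 0 called higher, the called members described here are all lower ones, and the drop in the sum lies mainly in Dazl. Dazl, an RNA-binding protein gene of germ cells, had 44.3 and 26.4 CPM in the KO libraries, and 74.6 and 76.0 CPM in the controls (log2 fold change -1.09 ± 0.22 SE, edgeR adjusted p = 0.028). Ldhc, the lactate dehydrogenase gene of the testis, had 2.40 and 3.35 CPM in the KO libraries, and 5.85 and 5.56 CPM in the controls (log2 fold change -0.99 ± 0.22 SE, edgeR adjusted p = 0.032). Prm2 had no count in any library, and Prm1, Tnp1, Spo11 and Acrv1 averaged at most 0.0892 CPM in either group. With either control library left out 2 were called lower and Ldhc lost its call, as Dazl did without the low-count filter. Leaving out KO replicate 1 gave 6 lower, and leaving out KO replicate 2 gave 5 lower and 3 higher.

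Intronless genes derived from spliced genes were read beside the copies, of which Eif4a3l1 itself has 2 annotated exons. Of 17 listed, 15 were in the table and 8 passed the filter, of which 1 rose and 2 fell, beside 5.76% higher and 8.57% lower over all tested genes. The median log2 fold change was 0.22. Rpl10l, a retrocopy of a ribosomal protein gene that is needed in male meiosis, had 74.3 and 69.7 CPM in the KO libraries, and 36.9 and 37.2 CPM in the controls (log2 fold change 0.96 ± 0.09 SE, edgeR adjusted p = 0.0064). Utp14b, a retrogene of a ribosome biogenesis factor, had 28.8 and 34.2 CPM in the KO libraries, and 43.4 and 45.4 CPM in the controls (log2 fold change -0.50 ± 0.12 SE, edgeR adjusted p = 0.040). Tktl2, a transketolase-like gene, had 1.28 and 0.873 CPM in the KO libraries, and 2.84 and 2.94 CPM in the controls (log2 fold change -1.41 ± 0.26 SE, edgeR adjusted p = 0.021). Utp14b lost its call with either control library left out and with the GC-content offset (-0.31). Leaving out control replicate 2 gave 2 higher and 1 lower, leaving out control replicate 1 gave 1 in each direction, and leaving out either KO library gave 4 higher.

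Among 33 other DEAD-box helicase genes tested, 3 rose and 5 fell, with a median log2 fold change of 0.07, against 5.76% higher, 8.57% lower and a median of 0.01 over all tested genes. Ddx19b, of mRNA export, had 165 and 168 CPM in the KO libraries, and 133 and 127 CPM in the controls (log2 fold change 0.36 ± 0.08 SE, edgeR adjusted p = 0.035). Ddx23, of the spliceosome, had 225 and 249 CPM in the KO libraries, and 187 and 184 CPM in the controls (log2 fold change 0.35 ± 0.09 SE, edgeR adjusted p = 0.045). The lower ones described here, Ddx52 and Ddx42, are on chromosome 11, where 40.3% of all tested genes were called lower. Ddx52, of ribosome biogenesis, fell by 0.67 on the log2 scale (edgeR adjusted p = 0.015), and Ddx42, of splicing, by 0.47 (edgeR adjusted p = 0.018). With either control library left out, 0 were called higher and 1 lower, and Ddx19b, Ddx23 and Ddx42 lost their calls. Leaving out KO replicate 1 gave 16 higher and 10 lower, and leaving out KO replicate 2 gave 10 higher and 10 lower.

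Genes of the complexes in which the parents work were read beside them. Of 14 cap-binding complex genes tested, which did not include Eif4a1 and Eif4a2, 1 rose (7.14%) and 1 fell (7.14%), near the 5.76% higher and 8.57% lower over all tested genes, with a median log2 fold change of 0.14. Eif4ebp2, an inhibitor of the cap-binding protein, had 382 and 397 CPM in the KO libraries, and 303 and 302 CPM in the controls (log2 fold change 0.37 ± 0.08 SE, edgeR adjusted p = 0.031). Eif4e, the cap-binding protein gene, had 98.0 and 93.4 CPM in the KO libraries, and 121 and 121 CPM in the controls (log2 fold change -0.33 ± 0.08 SE, edgeR adjusted p = 0.043). Of 21 exon junction and nonsense-mediated decay genes tested, 2 rose (9.52%) and 4 fell (19.0%), beside 5.76% and 8.57% of all tested genes. Their median log2 fold change was 0.10. Magohb, a core subunit that binds EIF4A3, had 11.8 and 7.97 CPM in the KO libraries, and 24.3 and 23.9 CPM in the controls (log2 fold change -1.28 ± 0.19 SE, edgeR adjusted p = 0.014). Casc3, the gene of another core subunit, on chromosome 11, fell by 0.46 on the log2 scale (edgeR adjusted p = 0.017), while Smg5 and Smg9, of the decay pathway, rose by 0.40 and 0.51 (edgeR adjusted p = 0.025 and 0.030). Of the 9 genes called lower in the DEAD-box and exon junction lists, 6 are on chromosome 11, where these lists had 8 tested genes and where 40.3% of all tested genes were called lower. With the GC-content offset Eif4e (-0.05), Smg5 (0.26) and Smg9 (0.26) lost their calls. With either control library left out, the cap-binding list had 0 calls, and the exon junction list had 0 higher and 1 lower, with Casc3 no longer called. Leaving out KO replicate 1 gave 8 cap-binding and 11 exon junction genes higher, and 3 cap-binding genes lower. Leaving out KO replicate 2 gave 7 cap-binding and 9 exon junction genes higher.

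**Figure D4:**
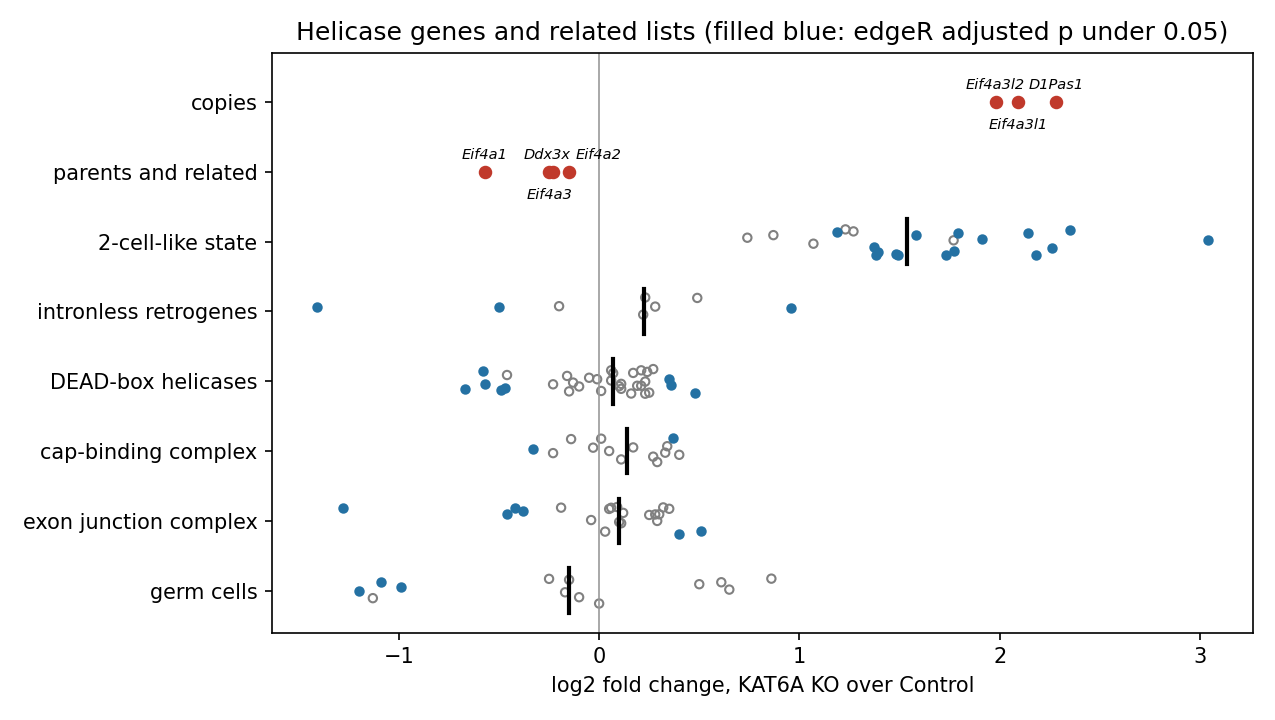
Log2 fold change, KAT6A KO over Control, of the copies and of the parents and related genes (red, named) and of each list (filled blue where the edgeR adjusted p is under 0.05, open otherwise; the vertical bar is the list median). The copies lie between 1.98 and 2.28, in the range of the 2-cell-like genes, and the parents and related genes between -0.57 and -0.15.

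The libraries held 30185640 and 27494041 counts in KO cells, and 35616899 and 37354623 in control cells. Over all genes 928 were called higher and 1381 lower. Leaving out control replicates 1 and 2 in turn gave 254 and 278 higher, with 670 and 648 lower, and leaving out KO replicates 1 and 2 in turn gave 4020 and 3532 higher, with 4400 and 3863 lower. The ES cell markers, 8 of 8 tested, summed to 4981 and 5554 CPM in the KO libraries, and to 4162 and 4312 CPM in the controls, and 1 of them, Esrrb, rose (log2 fold change 0.56, edgeR adjusted p = 0.013), a call lost with either control library left out. The fibroblast markers summed to 35.6 and 37.5 CPM in the KO libraries, and to 57.0 and 55.9 CPM in the controls. The lower sum lies in Pdgfra alone, which other cells also express. Pdgfra had 5.62 and 12.2 CPM in the KO libraries, and 35.1 and 34.2 CPM in the controls. It was the 1 of 5 tested that changed (-1.96, edgeR adjusted p = 0.017), though not without the low-count filter. Lum had no counts. Kat6a itself had 242 and 86.4 CPM in the KO libraries, and 145 and 143 CPM in the controls (log2 fold change 0.19 ± 0.41 SE, edgeR adjusted p = 0.77), so replicate 1 labelled KAT6A KO stood above the controls and replicate 2 labelled KAT6A KO below them, with log2 fold changes of -0.74 without the first and 0.75 without the other. How the edit bears on the count of the whole gene was not tested. The labels, on which every direction rests, are not checked by this count.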

How the data were processed

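Per the labels' protocols, DNase-treated RNA went through the TruSeq Stranded mRNA kit, so polyadenylated RNA was sequenced. The deposited per-library tables are whole-number counts of reads by gene symbol. FeatureCounts and DESeq2 are named in the submitters' processing notes. The aligner, strand setting, annotation and genome build are not given in the sources consulted. The authors also deposited normalized counts, a signal in which each library was divided by 1 factor (0.945 and 0.848 for KO, 1.11 and 1.15 for Control), and a table without header. Its columns were read from their values as mean normalized count (signal), log2 fold change, standard error, Wald statistic (a score), p-value and adjusted p-value, all as the authors deposited them.

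The counts were tested in R 4.3.3 with edgeR 4.0.16: filterByExpr by group (16112 of 41543 symbols kept, at least 0.304 CPM in 2 libraries), TMM scaling (factors 0.992 to 1.01), the robust quasi-likelihood test on group alone, and Benjamini-Hochberg adjustment over all tested genes at a threshold of 0.05. Standard errors were computed from each fold change with its F statistic. The common biological coefficient of variation was 0.112. The mean chi-square per gene was 34.4 between the KO libraries and 3.70 between the controls, so neither pair holds the same counts. Libraries were compared within each group only, and these values do not tell separate cultures from repeat libraries of the same culture. Intervals on shares are exact binomial at 95% and cover counting error only.

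Sequences came from GENCODE M21 transcripts and from RefSeq promoter windows on GRCm38.p6, and were aligned with Biopython 1.88. Alternatives were RLE scaling, no low-count filter, 1 CPM in 2 libraries, DESeq2 1.42.0, limma-voom (limma 3.58.1), an offset for GC content (lowess span 0.3), the replicate number as a block, both together, copies summed with parents or with each other, each library left out, Wilson intervals and a promoter window of 250 bases. The fit was tested on simulated data. Named genes are the 7 helicase genes, up to 2 called members of each list per direction by adjusted p, the 3 genes most like each copy, neighbours within 50 kb, and Kat6a. Ddx3y and further genes listed with no or few counts were named after their values were seen. The genes, lists and alternatives were chosen with earlier results of these data known.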

Additional observations from a re-analysis of the deposited data

How the results depend on the processing

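Summing copies with their parents gave -0.16 for D1Pas1 with Ddx3x and -0.20 for Eif4a3 with Eif4a3l1 and Eif4a3l2, by construction, since the parents hold most of the counts. With the GC-content offset Ddx3x and Eif4a2 turned to 0.03 each and Eif4a3 reached -0.34 and passed the test, with or without the replicate block; the cause was not tested. No library number is stated to pair samples, and same-numbered libraries deviated together weakly (correlation 0.0945). With the replicate number as a block, 1613 genes were called higher and 2147 lower, and the lists gave 3 cap-binding, 4 exon junction, 2 retrogene and 1 germ cell gene higher. With the GC-content offset these were 2, 1, 2 and 1 higher, with 0 cap-binding and 1 retrogene lower, and with offset and block 3 cap-binding, 2 retrogene and 1 germ cell gene higher, 0 cap-binding and 1 retrogene lower. Without the low-count filter 2 cap-binding and 4 exon junction genes were higher, and by DESeq2 4 exon junction and 2 retrogene genes. Leaving out 1 library each gave 2.02 to 2.50 for D1Pas1, 1.94 to 2.23 for Eif4a3l1, 1.77 to 2.22 for Eif4a3l2, -0.35 to -0.13 for Ddx3x, -0.65 to -0.49 for Eif4a1, -0.32 to -0.00 for Eif4a2 and -0.37 to -0.14 for Eif4a3. It moved all genes called higher between 254 and 4020 and lower between 648 and 4400. By list, calls ran higher and lower from 0 to 16 and 1 to 10 (DEAD-box), 0 to 8 and 0 to 3 (cap-binding), 0 to 11 and 1 to 5 (exon junction), 1 to 4 and 1 to 3 (retrogenes), and 0 to 3 and 2 to 6 (germ cells). The lone library of a group was then assumed to vary like the other group. Of 28 further genes named in the text, 26 were called. With either control library left out, the same 11 of these 26 lost their call (Casc3, Ddx19b, Ddx23, Ddx42, Eif4e, Eif4ebp2, Esrrb, Ldhc, Smg5, Smg9 and Utp14b), with the GC-content offset 4 (Eif4e, Smg5, Smg9 and Utp14b), with offset and block 5 (Ddx23 in addition), and without the low-count filter 2 (Dazl and Pdgfra). Ddx3y turned to 0.24 with the GC-content offset and 0.23 with offset and block, and Kat6a ran from -0.74 without KO replicate 1 to 0.75 without KO replicate 2. Eif4a3l2, with 17 to 70 counts per library, is limited most by depth.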
